A study of Mus musculus with 2 samples.

Results

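Immunoglobulin genes encode the heavy and light chains of antibodies and of the B cell receptor. Ighm, Ighd and Igha give the constant regions of the μ, δ and α heavy chains, Igkc gives that of the κ light chain, and Iglc2 and Iglc3 give those of λ light chains. Igj encodes the joining chain that links the subunits of secreted IgM and IgA. As background, a mature B cell carries IgM and IgD at its surface with a single light chain type, whereas a plasma cell secretes antibody and devotes a large part of its RNA to it. B cells are known among the leukocytes of the healthy mouse heart.

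The genes were taken by symbol from a list of 7, and 5 of them (Ighm, Igha, Igkc, Iglc2 and Igj) could be read in the count tables, which hold 184 immunoglobulin genes among 23946 genes. For Ighd and Iglc3 no counts were at hand, so they were not analysed here and no value for IgD is given.

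CD45+ leukocytes were sorted from hearts of wild-type female C57BL6 (C57BL/6J in the study's methods) mice 24 hours after an intraperitoneal injection and profiled by droplet-based 3′ single-cell RNA sequencing. The TTS group, a model of Takotsubo syndrome, received 200 mg/kg isoproterenol (ISO), an agonist of β-adrenergic receptors. The control group is taken as the vehicle (PBS) group from its title and the study's methods, because the sample labels name the ISO injection for both. Each group is 1 library made from 15000 loaded cells pooled from 3 mice, so the mice of a library cannot be told apart, and no difference between the libraries has a replicate check. The labels give no age, and the study's methods give only a range, of young adult mice, that is not tied to a sample.

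The deposited control library held 5927 cell barcodes with 47382455 UMIs (unique molecular identifiers, each counting 1 captured transcript), and the TTS library held 5514 barcodes with 58495112 UMIs. After filtering, 5641 control and 5437 TTS barcodes were kept, with medians of 4790 and 8537 UMIs per barcode. There were 15 barcode sequences that occurred in both libraries. Levels are UMIs summed over the barcodes of a class and given per 1000000 UMIs of that class (CPM). A 3′ tag counts each transcript once, so CPM is not divided by gene length. Intervals are 95% and exact (Poisson for sums, conditional on the total for ratios, Clopper-Pearson for shares), and they cover counting error only.

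Barcodes were assigned to classes with marker genes that include no immunoglobulin gene. A barcode was positive for a class if it had at least 3 of its markers and at least 20% of the reference level, which is the median summed marker CPM among barcodes with at least 5 markers. B-gated barcodes were positive for B cell markers and no other class. Plasma-like barcodes had at least 4 of 9 plasma cell markers and no class other than B. There were 1982 B-gated barcodes in the control library (35.1% of those kept, interval 33.9% to 36.4%) and 39 in the TTS library (0.717%, 0.511% to 0.979%). The marker level of B cells is a range, and 460 control and 193 TTS barcodes lay between 0.5 and 2 times the limit, many relative to the 39 TTS barcodes gated. A further 848 control and 167 TTS barcodes had markers of B cells together with those of another lineage.

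Immunoglobulin RNA was far less abundant in the TTS library as a whole. The summed level of the 5 genes was 1483 CPM in control (1472 to 1495) and 93.8 CPM in TTS (91.3 to 96.4), a log2 difference of −3.98 (−4.02 to −3.94). The μ heavy chain gene Ighm stood at 415 CPM in control and 28.2 CPM in TTS, a log2 difference of −3.88 (−3.96 to −3.80). The κ gene Igkc stood at 727 CPM and 47.1 CPM, a log2 difference of −3.95 (−4.01 to −3.89). The λ gene Iglc2 stood at 292 CPM and 18.4 CPM, a log2 difference of −3.99 (−4.08 to −3.90).

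The α chain gene Igha and the joining chain gene Igj showed larger differences that rested on few barcodes. Igha had 1060 UMIs in control (25.5 CPM) and 1 UMI in TTS (0.0180 CPM), a log2 difference of −10.46 (−15.77 to −7.98). Igj had 955 UMIs in control (22.9 CPM) and 5 in TTS (0.0902 CPM), a log2 difference of −7.99 (−9.62 to −6.76). A single control barcode held 99.4% of the control Igha UMIs, and 2 control barcodes held 98.8% of the Igj UMIs. Outside these barcodes, 6 control barcodes had 1 Igha UMI each and 11 had 1 Igj UMI each. Without the 2 barcodes, an alternative chosen after seeing the data, the summed log2 difference was −3.69. By gene it was then −3.28 for Ighm (−3.36 to −3.20), −3.78 for Igkc (−3.84 to −3.73) and −3.98 for Iglc2 (−4.08 to −3.89), so Ighm differed less than the light chain genes. The first of the 2 barcodes held 5883 of the 17304 control Ighm UMIs. For Igha and Igj the log2 differences were then −3.00 (−8.52 to 0.04) and −1.55 (−3.43 to 0.09), with intervals that include 0.

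All 5 measured members were at least 2-fold lower in TTS over the whole library. Among 15976 genes with at least 20 UMIs in both libraries together, 31.5% were at least 2-fold lower and 6.9% at least 2-fold higher, and the median log2 difference was −0.52, against −3.99 for the members. The share of B-gated barcodes stands beside these values (35.1% in control and 0.717% in TTS). Barcodes with markers of B cells and another lineage were a further 15.0% and 3.07%. The part of these shares in the immunoglobulin values was not tested.

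The next comparison asked whether the level within B-gated barcodes also differed. In B-gated barcodes the summed level was 4004 CPM in control (3958 to 4051) and 5382 CPM in TTS (5019 to 5764), a log2 difference of 0.43 (0.32 to 0.53). This direction was not stable: when barcodes with markers of B cells and another lineage were counted as B-gated, the log2 difference was −0.52. The class is also small in TTS, where 39 barcodes held 151990 UMIs and 1 UMI equals 6.58 CPM.

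Ighm was at 779 CPM in control (759 to 799.7) and 836 CPM in TTS (697 to 994), with overlapping intervals. Iglc2 was at 981 CPM (958 to 1004) and 974 CPM (823 to 1144), also with overlapping intervals. Igkc was at 2244 CPM (2209 to 2279) and 3553 CPM (3259 to 3866), a log2 difference of 0.66 (0.54 to 0.79). Thus the higher summed level in TTS B-gated barcodes lay in the κ gene, while the μ and λ genes did not differ beyond counting error. None of these 3 genes passed 2-fold in either direction, where 14.7% of 10286 genes were at least 2-fold higher and 11.9% at least 2-fold lower. Among barcodes with markers of B cells and another lineage, Igkc was at 820.1 CPM in control (804 to 837) and 827 CPM in TTS (784 to 872). In these barcodes Ighm was at 311 CPM (301 to 321) and 209 CPM (187 to 232). Iglc2 was at 383 CPM (372 to 395) and 345 CPM (318 to 375), a log2 difference of −0.15 (−0.28 to −0.02), so the heavy chain gene and, by less, the λ gene were lower there, and the κ gene did not differ beyond counting error.

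Per barcode, Igkc was also the gene with the higher count in TTS, with Iglc2 beside it. The median B-gated barcode had 7 Igkc UMIs in control and 14 in TTS, 2 Ighm UMIs in each library, and 1 and 3 Iglc2 UMIs, at median depths of 3205 and 3276 UMIs. The highest counts in a control B-gated barcode were 56 for Igkc, 29 for Ighm and 80 for Iglc2. Secretion-linked and switched chains had few UMIs in this class. Igha had 2 UMIs in control and 0 in TTS. Igj had 3 UMIs in each library, at 0.416 CPM in control (0.0857 to 1.21) and 19.7 CPM in TTS (4.07 to 57.7), a log2 difference of 5.57 (2.67 to 8.47). The 3 TTS Igj UMIs came from 1 barcode, which also had 21 Igkc and 19 Iglc2 UMIs. Ighg2b had 7 UMIs in 2 control barcodes (0.970 CPM) and 3 UMIs in 1 TTS barcode (19.7 CPM).

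The share of barcodes with a UMI depends on depth, so each barcode was thinned at random to 1000 UMIs, leaving out 5 shallower control B-gated barcodes and 0 in TTS. After thinning, Igkc was found in 79.0% of control B-gated barcodes (77.1% to 80.8%) and 87.2% in TTS (72.6% to 95.7%). Ighm was found in 44.5% (42.3% to 46.7%) and 46.2% (30.1% to 62.8%). Iglc2 was found in 37.5% (35.4% to 39.7%) and 61.5% (44.6% to 76.6%), with intervals that do not overlap in this 1 random draw, while its summed CPM did not differ beyond counting error. Thinned to 2000 UMIs the Iglc2 intervals overlapped, at 54.6% in control (52.3% to 56.9%) and 71.8% in TTS (55.1% to 85.0%). In control 73 barcodes called λ (defined below) held 1505 of the 7076 Iglc2 UMIs. Unthinned, the shares in control and TTS were 92.2% and 94.9% for Igkc, 78.0% and 87.2% for Ighm, and 65.1% (63.0% to 67.2%) and 79.5% (63.5% to 90.7%) for Iglc2, again with overlapping intervals.

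T-gated barcodes were read for comparison, and the source of the immunoglobulin transcripts in them was not tested. After thinning, Ighm was found in 2.76% of control T-gated barcodes (0.903% to 6.33%, with 1 shallower barcode left out) and in 8.33% in TTS (2 of 24, 1.03% to 27.0%). Igkc was found in 1.10% in control and in 0 of 24 in TTS, and Iglc2 in 0 of 181 and 0 of 24. Counts of 0 allow shares of up to 2.02% and 14.2% by the exact interval. Unthinned, Ighm was in 22.0% of control and 6 of 24 TTS T-gated barcodes, at median depths of 4948 and 3596 UMIs. The thinned shares of all 3 genes in B-gated barcodes were above those in T-gated barcodes in both libraries, with intervals that did not overlap.

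Light chain use was then compared. Of the Igkc and Iglc2 UMIs in B-gated barcodes, Igkc made up 69.6% in control (69.0% to 70.2%) and 78.5% in TTS (75.2% to 81.5%). The intervals also stayed apart with barcodes of B cells and another lineage counted in, at 69.0% in control (68.6% to 69.5%) and 72.6% in TTS (70.9% to 74.3%). They overlapped after thinning, at 70.4% (69.2% to 71.5%) and 74.0% (66.7% to 80.4%). They also overlapped with barcodes of 4 to 8 plasma cell markers counted in, at 69.3% (68.7% to 69.9%) and 71.1% (67.8% to 74.3%), an alternative chosen after seeing the data. With the gate limit halved the values were 69.6% and 77.6%, with it doubled 69.2% and 78.0%, and with 5 markers required 69.3% and 77.6%. The TTS share was thus higher in each of these settings, by a margin that varied.

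A barcode was called κ or λ if at least 90% of at least 5 light chain UMIs were of that type. Among 1550 control barcodes with enough UMIs, 576 were κ (37.2%), 73 were λ (4.71%) and 901 held both (58.1%, 55.6% to 60.6%). Among 37 TTS barcodes, 14 were κ, 0 were λ, which allows a share of up to 9.49% by the exact interval, and 23 held both. The 2 TTS barcodes with fewer than 5 light chain UMIs held 7 Iglc2 and 0 Igkc UMIs. A TTS barcode with 72 Iglc2 and 8 Igkc UMIs was in the plasma-like class and is not counted here. The count of 0 λ barcodes thus depends on these limits. Mixed barcodes were thus the most common class in each library. In control they had medians of 8 Igkc and 3 Iglc2 UMIs at a median depth of 3434 UMIs, against 3185 UMIs for λ barcodes. Of the 901 mixed barcodes, 5 had a doublet score among the highest of the library. The source of the mixture was not tested.

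**Figure D1:**
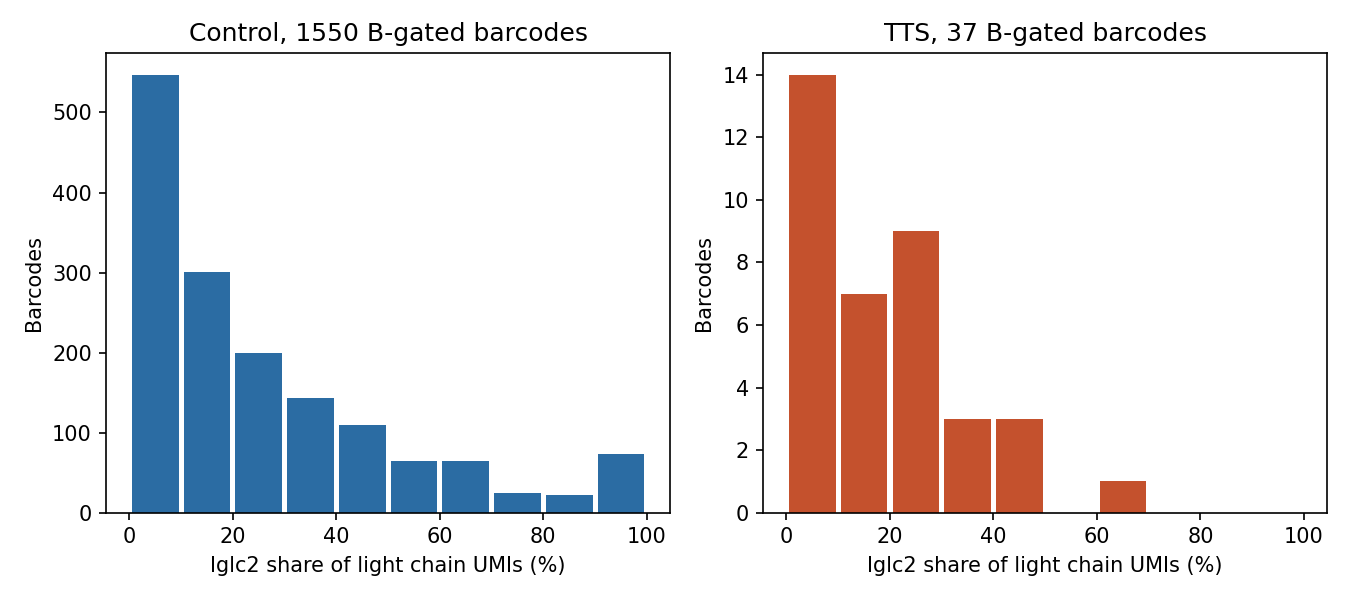
Number of B-gated barcodes (vertical axis) by the share of Iglc2 among their Igkc and Iglc2 UMIs (horizontal axis, 10% bins) in the control and TTS libraries, for barcodes with at least 5 light chain UMIs. The control distribution falls from 547 barcodes in the lowest bin to 22 in the bin from 80% to 90% and holds 73 barcodes at 90% or above, a group with 0 barcodes in TTS.

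The heavy chain level differed with light chain class. In control, Ighm was at 626 CPM in κ barcodes (593 to 661), 905 CPM in mixed barcodes (875 to 936) and 1594 CPM in λ barcodes (1443 to 1757), and no neighbouring intervals in this order overlapped. In TTS, Ighm was at 722 CPM in κ barcodes (508 to 995) and 922 CPM in mixed barcodes (739 to 1137), with overlapping intervals. The λ variable genes were scarce in B-gated barcodes, with 118 Iglv3, 26 Iglv1 and 5 Iglv2 UMIs in control and 2 Iglv3 UMIs in TTS.

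Iglc2 needs a caution, because its near copy Iglc3 lies on the same chromosome. The coding parts of the constant exons of Iglc2 and Iglc3 are 317 bases each and identical at 306 (96.5%), with a longest shared run of 79 bases, whereas Iglc1 is identical to Iglc2 at 72.5%. Over the whole constant exons, which extend past the coding part at the 3′ end, 429 of 457 aligned positions were identical (93.9%). How reads that match both copies were counted is not given in the sources used here. It is thus not known whether the Iglc2 counts include transcripts of Iglc3. The first 150 bases of both coding parts are shown to make the likeness visible, from GENCODE M21 on GRCm38 (mm10), minus strand, at chr16:19198703-19198852 for Iglc2 and chr16:19065532-19065681 for Iglc3. Capitals mark the 7 bases that differ between them.
Iglc2: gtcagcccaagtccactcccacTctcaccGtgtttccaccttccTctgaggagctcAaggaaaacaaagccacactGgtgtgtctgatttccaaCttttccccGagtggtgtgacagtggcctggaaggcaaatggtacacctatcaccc
Iglc3: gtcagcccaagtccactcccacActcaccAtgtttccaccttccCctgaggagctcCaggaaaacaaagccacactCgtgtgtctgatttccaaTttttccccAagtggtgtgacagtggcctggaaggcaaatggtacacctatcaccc

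In the same annotation the heavy chain genes lie together on chromosome 12, with Ighm at chr12:113418558-113422730, Ighd at chr12:113406604-113416324 and Igha at chr12:113254830-113260236, all on the minus strand. Igkc lies at chr6:70726435-70726966 on the plus strand, and Igj, there named Jchain, at chr5:88519809-88527891 on the minus strand.

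Plasma-like barcodes numbered 30 in control and 2 in TTS, and they were not uniform. With at least 3 plasma cell markers required there were 165 and 7, and with at least 5 there were 6 and 1. Immunoglobulin transcripts dominated only 2 control barcodes, the ones with all 9 plasma cell markers. In the first of these, 41.0% of 21881 UMIs (40.4% to 41.7%) were of immunoglobulin genes, with 5883 Ighm, 2495 Igkc and 514 Igj UMIs. In the other, 22.9% of 10351 UMIs (22.1% to 23.7%) were of immunoglobulin genes, with 1054 Igha, 791 Igkc, 430 Igj and 64 Ighg2b UMIs and 0 Ighm. The pair thus comprised a μ,κ barcode and an α,κ barcode, both with the joining chain. Both also held the κ variable gene Igkv15-103, with 19 and 8 UMIs, and the first held 33 UMIs of the heavy chain variable gene Ighv7-1.

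The other 28 control plasma-like barcodes were close to B-gated ones in their immunoglobulin levels. Ighm was at 859 CPM (732 to 1001), Igkc at 2303 CPM (2092 to 2529) and Iglc2 at 1576 CPM (1402 to 1765), with 0 UMIs of Igha and Igj, which allows up to 19.4 CPM by the exact interval. Their Ighm and Igkc intervals include the B-gated values, and their Iglc2 level was higher. In TTS the barcode with 5 plasma cell markers had 72 Iglc2, 15 Ighm, 8 Igkc and 2 Igj UMIs among 6774, and the barcode with 4 had 4 Iglc2, 3 Igkc and 2 Ighm UMIs among 4706.

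Much of the immunoglobulin RNA lay outside B-gated barcodes. B-gated barcodes held 46.8% of the 5 genes' UMIs in control (46.4% to 47.2%) and 15.7% in TTS (14.7% to 16.7%). Plasma-like barcodes held 19.6% and 2.04%, and barcodes of B cells with another lineage held 28.7% and 44.0%. Without the 2 control barcodes with all 9 plasma cell markers, an alternative chosen after seeing the data, the control B-gated share was 57.1%. Macrophage or monocyte barcodes held 1.59% in control and 17.0% in TTS, where they were 59.9% of barcodes. Barcodes with markers of 2 lineages other than B held 2.72% and 16.0%. The share in B-gated barcodes depends on the procedure, since it was 76.2% and 33.2% when each barcode was thinned to 1000 UMIs, and 75.4% and 59.8% with B cells of another lineage counted in.

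Over all other single classes combined, the summed level was 115 CPM in control (109 to 122) and 32.6 CPM in TTS (30.7 to 34.6), a log2 difference of −1.82 (−1.94 to −1.71). The largest of these classes, macrophages or monocytes, carried Ighm at 108 CPM in control (100.4 to 116) and 13.3 CPM in TTS (12.0 to 14.6), a log2 difference of −3.03 (−3.20 to −2.85). Igkc there was at 29.5 CPM (25.6 to 33.9) and 12.0 CPM (10.8 to 13.2), a log2 difference of −1.30 (−1.56 to −1.05). Iglc2 there was at 6.31 CPM (4.57 to 8.50) and 3.69 CPM (3.04 to 4.44), a log2 difference of −0.77 (−1.29 to −0.23). So all 3 genes were lower in this class in TTS, and Ighm by the widest margin. The class pools macrophages and monocytes of all subsets, whose make-up may differ between the libraries and was not analysed here. Of these 3 genes 2 passed 2-fold lower and 0 passed 2-fold higher, where 23.6% of 12922 genes were at least 2-fold lower and 8.77% at least 2-fold higher.

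B cell markers moved in the same direction in macrophage or monocyte barcodes. All 12 markers were detected in each library, at a summed 148 CPM in control and 31.8 CPM in TTS, with Bank1 the most abundant in control (49.6 CPM) and Ebf1 in TTS (8.04 CPM). T cell markers were also lower there, at 34.3 CPM in control (30.1 to 39.0) and 9.67 CPM in TTS (8.60 to 10.8), and neutrophil markers higher, at 156 CPM (147 to 166) and 514 CPM (506 to 522). Barcodes positive for B cells, T cells or neutrophils had been left out of this class, so these marker levels depend on the selection. The part of these markers in the immunoglobulin values was not tested.

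In most other classes Ighm was present at low levels in both libraries. In control the Ighm level was 183 CPM in plasmacytoid dendritic cells (97.6 to 313), 82.5 CPM in neutrophils (53.9 to 121), 66.1 CPM in group 2 innate lymphoid cells (ILC2, 49.4 to 86.7) and 61.0 CPM in conventional dendritic cells (46.2 to 79.1). It was 48.1 CPM in T cells (35.3 to 64.0) and 34.4 CPM in natural killer (NK) cells (25.4 to 45.4). Neighbouring classes in this order had overlapping intervals. In TTS the Ighm level was 183 CPM in plasmacytoid dendritic cells (123 to 263) and 65.9 CPM in conventional dendritic cells (54.9 to 78.4), close to the control values and unlike the macrophages. In TTS T cells (71.9 CPM), neutrophils (47.8 CPM), NK cells (22.2 CPM) and ILC2 (11.3 CPM), Ighm rested on 7, 5, 2 and 3 UMIs. Fibroblast or endothelial barcodes had 1 Ighm UMI in control (5.33 CPM) and 0 in TTS, which allows up to 62.2 CPM by the exact interval.

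**Figure D2:**
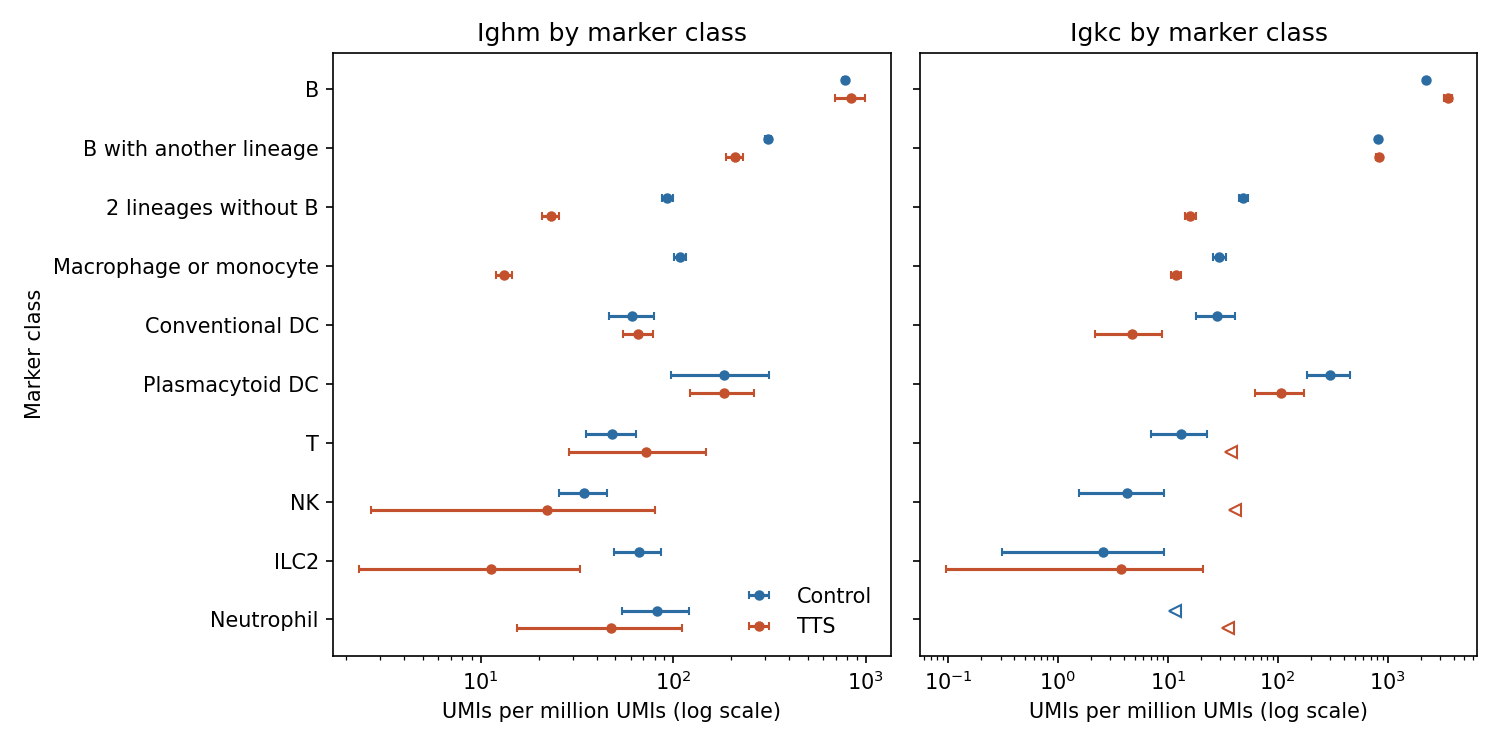
Ighm (left) and Igkc (right) in CPM on a log scale, whose range differs between the panels, by marker class and library, with points for the summed level and bars for exact 95% Poisson intervals. Open triangles mark the upper limit where no UMI was counted; in macrophages or monocytes Ighm is at 108 CPM in control and 13.3 CPM in TTS, and in conventional dendritic cells it is at 61.0 and 65.9 CPM.

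The ratio of Ighm to Igkc differed between B-gated barcodes and most other single classes. In B-gated barcodes there were 0.347 Ighm UMIs per Igkc UMI in control (0.337 to 0.358) and 0.235 in TTS (0.192 to 0.286). Barcodes of B cells with another lineage had ratios of 0.379 (0.365 to 0.394), above the B-gated value in control, and 0.252 (0.223 to 0.284), with overlapping intervals in TTS. In macrophage or monocyte barcodes the ratio was 3.66 in control (3.13 to 4.30) and 1.11 in TTS (0.961 to 1.28). Other single classes mostly held more Ighm than Igkc as well. In control the ratio was 3.62 in T cells (1.92 to 7.28), 8.17 in NK cells (3.49 to 23.3) and 26.0 in ILC2 (6.84 to 220.4), and neutrophils had 26 Ighm UMIs and 0 Igkc UMIs. In conventional dendritic cells it was 2.19 in control (1.36 to 3.63) and 14.0 in TTS (7.14 to 31.3), but 1 barcode held 21 of the 26 control Igkc UMIs and 1 barcode all 9 in TTS, so the difference between these values is not read. The exceptions were small control classes, plasmacytoid dendritic cells with 13 Ighm to 21 Igkc UMIs and fibroblast or endothelial barcodes with 1 to 6. Their intervals (0.285 to 1.30 and 0.00362 to 1.37) include the control B-gated ratio. Of their Igkc UMIs, 17 of 21 lay in 2 barcodes and 5 of 6 in 1 barcode, so these exceptions rest on 3 barcodes. In TTS, NK cells had 2 Ighm and 0 Igkc UMIs and ILC2 had 3 and 1, too few to tell their ratio from that of B-gated barcodes.

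Ighm and Igkc were also spread differently over barcodes. In control macrophages or monocytes, Ighm was found in 404 of 1000 barcodes and Igkc in 48, and 19 barcodes with at least 5 Igkc UMIs held 71.1% of the Igkc UMIs. In TTS, Ighm was found in 280 of 3255 and Igkc in 76, and 34 barcodes held 79.0% of the Igkc UMIs. Over the other barcodes of the class the ratio was 12.0 in control (9.16 to 15.9) and 4.49 in TTS (3.50 to 5.83), a rise that leaving out barcodes rich in Igkc gives by construction and from which nothing is concluded. By the counts of barcodes above, Ighm was thinly and widely spread, whereas most Igkc lay in few barcodes. The ratio over all barcodes of this class was above that of B-gated barcodes of the same library, and the source of the Ighm transcripts was not tested.

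**Figure D3:**
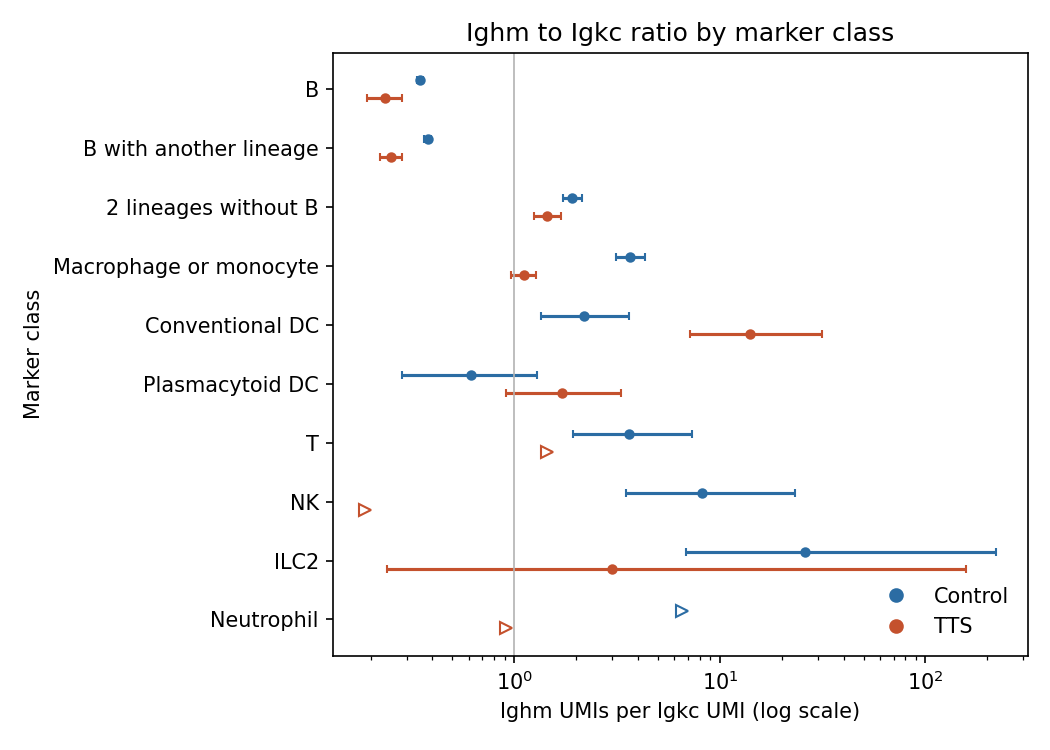
Ighm UMIs per Igkc UMI (log scale) by marker class in the control and TTS libraries, with exact 95% intervals, a grey line at a ratio of 1, and open triangles for the lower limit where no Igkc UMI was counted. B-gated barcodes lie at 0.347 and 0.235, below macrophages or monocytes at 3.66 and 1.11.

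After thinning to 1000 UMIs, Ighm was found in 10.6% of control macrophage or monocyte barcodes (8.76% to 12.7%) and 1.20% of TTS ones (0.853% to 1.63%), with 0 left out in either library. Without thinning it was found in 40.4% (median depth 6133 UMIs) and 8.60% (median depth 8144 UMIs). The control share was above that of control T-gated barcodes (2.76%). In TTS the T-gated interval (1.03% to 27.0%) rests on 2 of 24 barcodes, so no order is read there.

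Variable and joining genes were sparsely counted. Over all kept barcodes, 84 Igkv genes had 516 UMIs in control and 46 in TTS, and 77 Ighv genes had 279 and 45. The 3 Iglv genes had 279 and 44 UMIs, of which Iglv3 made up 220 and 40. Igkv4-81 led the κ variable genes in control with 49 UMIs, and Ighv7-1 led the heavy chain ones with 41, of which 33 were in the μ,κ plasma-like barcode. Of the γ heavy chains, Ighg2b had 73 UMIs in control, 64 of them in the α,κ barcode, and 5 in TTS, while Ighg1 had 2 and 0 and Ighg3 1 and 2.

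Genes that act with immunoglobulins were read in B-gated barcodes from lists of fixed membership, where the median log2 difference over all genes was 0.05. Over all genes with at least 20 UMIs, 14.7% were at least 2-fold higher in TTS and 11.9% at least 2-fold lower. Some list genes are themselves gate markers, so their levels here depend on the selection and are not compared between the libraries, and counts without them are given as an alternative chosen after seeing the data.

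Of 16 B cell receptor signaling genes, 0 were higher (beside 14.7% of all genes) and 1 lower (beside 11.9%; Cr2, the complement receptor), with a median of −0.34. Without the 5 gate markers among them, 0 of 11 were higher and 1 lower. Syk was at 549 CPM in control (532 to 566) and 349 CPM in TTS (261 to 456), and Ptprc at 703 CPM (684 to 723) and 519.8 CPM (412 to 648), both lower in TTS with intervals that did not overlap. The most abundant gene of the list, Cd79b, is a gate marker. Of the genes listed under surrogate light chain, Vpreb1 and Igll1 had 0 UMIs in B-gated barcodes of either library. Only Vpreb3 on this list had enough UMIs, and it is a gate marker too.

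Of 12 plasma cell program genes, 2 were at least 2-fold higher (beside 14.7% of all genes; Fkbp11 and Edem1) and 2 at least 2-fold lower (beside 11.9%; Sdc1 and Eaf2). Fkbp11 rested on 2 TTS UMIs, and Sdc1 and Eaf2 had 0, all with intervals that overlapped those in control, so these calls are not read. Of these 12 genes 6 are plasma cell markers, among them Fkbp11, Sdc1, Eaf2 and Mzb1, and barcodes with at least 4 such markers had been moved to the plasma-like class. Without them, 1 of 6 was higher (Edem1) and 0 lower, with a median of 0.53. Hsp90b1, an endoplasmic reticulum chaperone, was at 367 CPM in control (353 to 381) and 507 CPM in TTS (399.8 to 633), and Sec61b, of the translocation channel, at 204 CPM (193 to 214) and 342 CPM (256 to 449), both higher in TTS with intervals that did not overlap.

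Of 7 class switching and hypermutation genes, none of them a gate marker, 0 passed 2-fold in either direction (beside 14.7% and 11.9%), with a median of 0.01. Of 9 receptors for immunoglobulin, 2 were higher (beside 14.7%; Pigr and Fcer1g) and 1 lower (beside 11.9%; Fcer2a), and the counts were the same without the gate marker Faim3. Pigr rested on 3 TTS UMIs, at 3.46 CPM in control (2.24 to 5.11) and 19.7 CPM in TTS (4.07 to 57.7), with overlapping intervals. Fcer1g, which myeloid cells also express, was at 38.2 CPM (33.9 to 43.0) and 276 CPM (199 to 374). Fcer2a, the low-affinity IgE receptor, was at 304 CPM in control (291 to 317) and 145 CPM in TTS (90.7 to 219).

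Macrophage or monocyte markers were also higher in the TTS B-gated barcodes. In control 15 of 15 such markers were detected, at a summed 326 CPM (312 to 339), and in TTS 13 of 15, at 868 CPM (727 to 1029.9), with C1qc and Ms4a7 at 0. Lyz2 was the most abundant in each library, at 136 and 224 CPM. Neutrophil markers were higher as well, at 88.4 CPM in control (81.7 to 95.6) and 211 CPM in TTS (144 to 297), while T cell markers had 174 and 2 UMIs, at 24.1 CPM (20.7 to 28.0) and 13.2 CPM (1.59 to 47.5). Barcodes positive for another class had been left out of the B-gated class, so these marker levels depend on the selection. The part of these markers in the B-gated values was not tested.

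The genes most like each member were found by Pearson correlation of log2(CPM + 1) over 23 class and library sums of at least 20 barcodes, among 13981 genes with at least 50 UMIs. The sums share 2 libraries and differ in depth, and the classes were defined by markers that are among the genes compared, so the values are descriptive. For Iglc2 the most similar were the B cell markers Ms4a1 (r = 0.984) and Faim3 (0.981). For Igkc they were Mzb1 (0.951), Trim7 (0.943) and Chst3 (0.935). For Ighm the values were lower, with Srpk3 (0.866), 5830418P13Rik (0.865) and Chst3 (0.854). For Igj they were Ighg2b (0.976), Igha (0.925) and Anks1b (0.817). Without the control plasma-like sum, an alternative chosen after seeing the data, the values for Igj were 0.914 with Ighg2b, −0.0925 with Igha and 0.809 with Anks1b. The remaining likeness to Ighg2b includes the TTS B-gated sum, where each gene had 3 UMIs that came from different barcodes.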

How the data were processed

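Members, markers and gene lists were chosen with earlier results of these data known. The deposited tables hold UMI counts per gene and cell barcode, 1 table per library. Per the study's methods and the submitters' processing notes, the authors made these counts with bcl2fastq 2.19.1.403, UMI-tools 1.0.0, STAR 2.7.3a against mm10 and featureCounts 1.6.4 of Subread. The gene annotation and the treatment of reads matching several genes are not given in the sources used here.

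As in the study's methods, a barcode was kept if it had over 500 but under 6000 detected genes and a mitochondrial share below 25%, and a gene was kept if found in at least 3 such barcodes. Classes came from fixed markers without clustering, so immunoglobulin levels did not enter the gate. Of the markers named, 3 were not found by symbol. Doublets were kept in the main values. Scrublet's own threshold, in scanpy 1.11.5, marked 8 control and 0 TTS barcodes and was not usable, so as an alternative the highest-scoring 262 (4.64%) and 279 (5.13%) were left out. Thinning drew UMIs without replacement in a single random draw (seed 1). With 1 library per group no test across replicates was run. Genes counted as past 2-fold had at least 20 UMIs, with 0.5 UMI added to each count. Named genes were all members, the other immunoglobulin genes and, from 8 fixed lists, genes among the 3 most abundant in B-gated barcodes. No CPM in B-gated barcodes was given for gate markers of these lists. Genes past 2-fold in a list and those outside this rule were named after their values were seen. In all, 16 other settings, and 5 more chosen after seeing the data, were tried. The fold and interval steps were tested on simulated data. Analyses used Python 3.11.15, numpy 2.4.6, scipy 1.17.1, pandas 2.3.3, biopython 1.88 and matplotlib 3.10.9.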

Additional observations from a re-analysis of the deposited data

How the results depend on the processing

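Across the other settings, 43 values of the chief comparisons stayed within the interval or 1.5-fold range of the main value, 40 moved beyond it and 1 reversed. The cause was not tested unless stated. Thinned values come from 1 random draw and rest on fewer UMIs. The likeness of Igj to Igha was 0.925 with the control plasma-like sum and −0.0925 without it (chosen after seeing the data). Among plasma cell program genes, 2 higher and 2 lower became 1 and 0 without gate markers (chosen after seeing the data). The planned share of Ighd was not run, since no count of Ighd was at hand. No paired analysis was possible because each group is 1 library. With 39 B-gated barcodes, TTS values within that class are limited by depth.

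The summed whole-library log2 difference (main −3.98) was −3.86 with all deposited barcodes, −3.90 as a mean over barcodes, −4.04 after thinning and −3.69 without the 2 control barcodes with all 9 plasma cell markers (chosen after seeing the data). It was negative in every setting run. Without the same 2 barcodes the Ighm value was −3.28 (main −3.88), that of Igkc −3.78 (main −3.95) and that of Iglc2 −3.98 (main −3.99). Within B-gated barcodes (main 0.43) it was 0.54 with the gate limit halved and −0.52 with B cells of another lineage counted in, which by construction adds barcodes holding RNA of other cells. In other classes (main −1.82) it was −2.39 with the limit halved, −2.24 with it doubled and −2.05 after thinning.

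The share of immunoglobulin UMIs in B-gated barcodes (main 46.8% in control and 15.7% in TTS) was 45.8% and 14.2% with the limit halved, 75.4% and 59.8% with B cells of another lineage counted in, 51.2% and 17.4% without the highest doublet scores, and 76.2% and 33.2% after thinning. In control alone it moved to 48.6% with the limit doubled, 46.0% with 5 markers required, 44.5% with all deposited barcodes and 57.1% without the 2 plasma-like barcodes. The κ share (main 69.6% in control and 78.5% in TTS) was 70.4% and 74.0% after thinning, 69.0% and 72.6% with B cells of another lineage counted in, and 69.3% and 71.1% with barcodes of 4 to 8 plasma cell markers counted in (chosen after seeing the data). The intervals of the libraries overlapped in the first and last of these.

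Plasma-like barcodes numbered 165 and 7 with 3 markers required, and 6 and 1 with 5. Genes at least 2-fold higher in TTS B-gated barcodes (main 1512, 14.7%) numbered 7335 (43.9%) with no minimum of UMIs. With at least 100 UMIs they numbered 485 (6.87%). Without a minimum, even 0 TTS UMIs can pass 2-fold by construction, through the 0.5 UMI added to each count. Fcer1a, with 1 control and 0 TTS UMIs, had a log2 difference of 3.98. In the main setting 1 TTS UMI can pass, as for S1pr3 with 27 control UMIs (a log2 difference of 1.37). Genes at least 2-fold lower (main 1225) numbered 788 (11.2%) with at least 100 UMIs. After thinning, 1645 genes were higher (21%) and 1038 lower (13.3%), among 7825 genes.

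Shares of B-gated barcodes with a UMI rose with the depth kept. At 2000 UMIs they were 65.9% for Ighm, 90.3% for Igkc and 54.6% for Iglc2 in control and 66.7% for Ighm and 71.8% for Iglc2 in TTS. The Iglc2 intervals of the libraries overlapped there and unthinned, unlike at 1000 UMIs. Unthinned they were 78.0%, 92.2% and 65.1% in control, and 87.2% for Ighm and 79.5% for Iglc2 in TTS.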

Other observations

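Other B cell genes differed between the libraries within B-gated barcodes. Of 7 B-1 cell genes with at least 20 UMIs, 6 were at least 2-fold higher in TTS (beside 14.7% of all genes; Spn, Zbtb32, Plscr1, Ahnak, Cd9 and Itgam) and 0 lower (beside 11.9%), with a median log2 difference of 2.01 against 0.05 over all genes. With at least 100 UMIs required, an alternative applied to lists after seeing the data, 3 of these genes remained and 2 were higher (Ahnak and Cd9), beside 6.87% of all genes. Ahnak was at 135 CPM in control (127 to 144) and 269.8 CPM in TTS (194 to 366), and Cd9 at 31.7 CPM (27.8 to 36.1) and 125 CPM (75.3 to 195). By these levels Ahnak fell just short of 2-fold, and it was counted as higher only with the 0.5 UMI added to each count. Bhlhe41 was at 31.3 CPM (27.4 to 35.7) and 52.6 CPM (22.7 to 104), with overlapping intervals. Spn, Zbtb32 and Plscr1 rested on 3, 4 and 4 TTS UMIs. Spn was at 9.42 CPM (7.32 to 11.9) and 19.7 CPM (4.07 to 57.7), with overlapping intervals. Cd5, also on the list, had 10 control UMIs and 1 TTS UMI and so fell under the minimum of 20 UMIs. Cd9, Ahnak and Itgam are also expressed by myeloid cells. The summed macrophage or monocyte markers, whose level depends on the gate, were at 326 CPM in control and 868 CPM in TTS B-gated barcodes. Their part in these values was not tested.

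Of 8 follicular and marginal zone genes, 2 were at least 2-fold higher (beside 14.7%; S1pr3, with 1 TTS UMI, and Klf2) and 3 at least 2-fold lower (beside 11.9%; Fcer2a, Cr2 and Cd1d1), with a median of −0.10. S1pr3 was at 3.74 CPM in control (2.47 to 5.44) and 6.58 CPM in TTS (0.167 to 36.7), with overlapping intervals. These levels are less than 2-fold apart, and S1pr3 was counted as higher only with the 0.5 UMI added to each count. Cd1d1 had 1 TTS UMI, at 6.58 CPM (0.167 to 36.7), an interval that includes its control level of 22.0 CPM. Klf2, a transcription factor of resting lymphocytes, was at 621 CPM in control (603 to 639) and 1421 CPM in TTS (1238 to 1624). Ccr7, a homing receptor, was at 900.1 CPM (878 to 922) and 783 CPM (649 to 937). Of 9 B cell transcription factors, 0 passed 2-fold in either direction (beside 14.7% and 11.9%), with a median of −0.62. Ebf1 and Pax5 are gate markers, so their levels here depend on the selection and are not compared. Without them, an alternative chosen after seeing the data, 0 of 7 passed 2-fold, with a median of −0.62. Pou2af1, the most abundant of the 7, was at 349.9 CPM in control (336 to 364) and 368 CPM in TTS (278 to 478), with overlapping intervals. Bach2 was at 337 CPM (324 to 351) and 184 CPM (122 to 266). Spib was at 314 CPM (301 to 327) and 191 CPM (128 to 274), and Irf8 at 287 CPM (275 to 300) and 184 CPM (122 to 266). Bach2, Spib and Irf8 were thus lower in TTS with intervals that did not overlap. Ikzf3, Foxo1 and Tcf3 were also lower, with overlapping intervals.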
